A study of Mus musculus with 2 samples.

Results

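The 35 genes described here make cholesterol and fatty acids or control that synthesis, and they are 35 of the 55450 genes in the deposited matrices of the ventrolateral periaqueductal gray (vlPAG), a column of the midbrain. They were listed by pathway, with earlier results of these data known, as 17 sterol synthesis genes, 12 fatty acid synthesis genes and 6 regulators or sterol carriers. The data are 2 single-nucleus RNA sequencing libraries, 1 from mice on a high-fat diet (HFD) and 1 from mice on a normal food diet (NFD). Each was made from the vlPAG of 18 wild-type C57/BL6J mice, adult males that began the diet at the age of 8 weeks and stayed on it for 7 weeks. HFD feeding is a model of diet-induced obesity. A single library stands for each diet and its mice were pooled, so the spread between animals is unknown, no p-value is given, and each interval covers only the error of counting.

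Cholesterol in the brain is made there, because the blood-brain barrier keeps out the cholesterol of the circulation. The path starts with acetyl-CoA, runs through mevalonate and squalene, and closes the sterol rings at lanosterol, which later enzymes trim and reduce to cholesterol. When sterol in the endoplasmic reticulum is scarce, SCAP carries the transcription factors SREBP1 and SREBP2 (genes Srebf1 and Srebf2) to the Golgi for cleavage, and the INSIG proteins hold them back when sterol is plentiful. SREBP2 mainly drives sterol synthesis genes and SREBP1c mainly fatty acid synthesis genes. Astrocytes are known as a main source of cholesterol for adult neurons, and oligodendrocytes need it for myelin.

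SREBP proteins bind sterol regulatory elements in promoters, often beside the CCAAT box that NF-Y binds. The promoters of 28 of the 35 genes were found in a RefSeq table (GRCm38.p6, 250 bases before to 50 after the gene start), and 4 are shown, those of the sterol genes Idi1, Hmgcs1, Cyp51 and Hsd17b7, because these genes had the lowest HFD to NFD ratios of the sterol genes in GABAergic nuclei. Each is printed 5′ to 3′ on the strand of its gene. Capitals mark CCAAT on either strand (ATTGG as printed on the opposite one) and, in Hmgcs1, the letters TCACNCCAC of a sterol regulatory element.
Idi1, chr13:8885356-8885655, plus strand: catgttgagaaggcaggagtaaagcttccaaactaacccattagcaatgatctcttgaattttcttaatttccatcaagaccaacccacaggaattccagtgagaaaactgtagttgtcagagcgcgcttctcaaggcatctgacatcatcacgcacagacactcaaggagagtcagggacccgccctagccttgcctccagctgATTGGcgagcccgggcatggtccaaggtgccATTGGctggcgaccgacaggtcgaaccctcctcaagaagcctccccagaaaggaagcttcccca
Hmgcs1, chr13:119690101-119690400, plus strand: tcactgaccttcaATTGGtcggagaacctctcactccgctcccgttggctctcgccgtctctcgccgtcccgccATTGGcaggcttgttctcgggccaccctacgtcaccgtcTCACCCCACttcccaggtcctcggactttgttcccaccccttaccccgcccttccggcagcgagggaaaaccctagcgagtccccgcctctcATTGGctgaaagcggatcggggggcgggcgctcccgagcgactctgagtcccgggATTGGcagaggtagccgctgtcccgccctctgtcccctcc
Cyp51, chr5:4104648-4104947, minus strand: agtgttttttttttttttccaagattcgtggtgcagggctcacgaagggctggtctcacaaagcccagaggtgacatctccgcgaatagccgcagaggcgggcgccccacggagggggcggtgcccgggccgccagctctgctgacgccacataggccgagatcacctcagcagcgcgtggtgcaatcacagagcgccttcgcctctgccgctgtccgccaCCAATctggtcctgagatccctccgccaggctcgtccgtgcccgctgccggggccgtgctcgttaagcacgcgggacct
Hsd17b7, chr1:169969156-169969455, minus strand: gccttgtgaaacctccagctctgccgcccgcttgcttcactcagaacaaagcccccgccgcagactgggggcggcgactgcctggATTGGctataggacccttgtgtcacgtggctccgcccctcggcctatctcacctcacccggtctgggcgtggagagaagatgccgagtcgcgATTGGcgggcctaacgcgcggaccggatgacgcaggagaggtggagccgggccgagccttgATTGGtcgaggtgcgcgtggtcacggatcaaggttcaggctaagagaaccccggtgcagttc
CCAAT lay in the promoter window of 14 of 14 sterol genes, 4 of 5 regulators and 6 of 9 fatty acid genes that had one, against 41.1% of all 27025 genes in the table. TCACNCCAC, searched on both strands, was found in 1 of the 28 genes (Hmgcs1) and in 1.44% of all genes. CACGTG, a motif that other factors and SREBP1 can bind, was found in 6 of the 28 and in 8.09% of all genes, with no overlap with CCAAT in its letters. These matches describe the sequence and do not mark sites in use.

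After the filter stated in the methods (more than 500 UMIs and under 20% mitochondrial counts), 6322 HFD and 7500 NFD nuclei remained, at medians of 7347.5 and 4504.5 UMIs (unique molecular identifiers, 1 per captured RNA molecule). The libraries shared 12 cell barcodes after the filter. Nuclei were clustered with the listed genes left out and named from marker genes. The GABAergic class held 2087 HFD and 2362 NFD nuclei. Levels are given as CPM, the UMIs of a gene divided by all UMIs of the cell group in that library, times 1000000. Clusters 0, 6, 12 and 17 had vesicular glutamate transporter (Slc17a6, Slc17a7, Slc17a8) levels at least 2-fold those of the GABAergic markers. Only 1 of those 3 transporters was detected in at least 10% of their nuclei, so they are called Slc17a-high neurons and given no class name. Of the GABAergic clusters, cluster 4 also carried these transporters, at 115 CPM beside 245 CPM of Slc32a1, Gad1 and Gad2. That is just past the 2-fold limit and close to the 114.5 CPM of transporters in the mixed-transmitter cluster 1. The other GABAergic clusters (2, 3, 7 and 10) had 6.67 to 28.2 CPM of the transporters. A granule-like cluster held 762 HFD nuclei and 10 NFD nuclei and was not compared. Clusters 15, 18, 20 and 22, with 334 HFD and 394 NFD nuclei, were left unnamed. Cluster 15 held 23 HFD and 260 NFD nuclei, and cluster 22 held 88 HFD and 8 NFD nuclei.

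GABAergic nuclei gave the most precise comparison. Their sterol synthesis genes measured lower in the HFD library and their fatty acid synthesis genes lay on both sides of 0. Of the 17 sterol genes, 16 had at least 100 UMIs over both libraries, which is the minimum used for a ratio. Of these, 14 were lower in the HFD library and 11 were at least 20% lower (a log2 ratio of HFD over NFD of -0.32 or less, the size used for a call), at a median log2 ratio of -0.40. Over all 12823 genes with 100 UMIs, 59.5% were lower and 13.8% at least 20% lower, and the median was -0.05. Summed over the 17 genes, the level was 306 CPM (299 to 314) in HFD nuclei and 397 CPM (387 to 407) in NFD nuclei, a log2 ratio of -0.37 (-0.43 to -0.32, exact 95% interval).

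**Figure D1:**
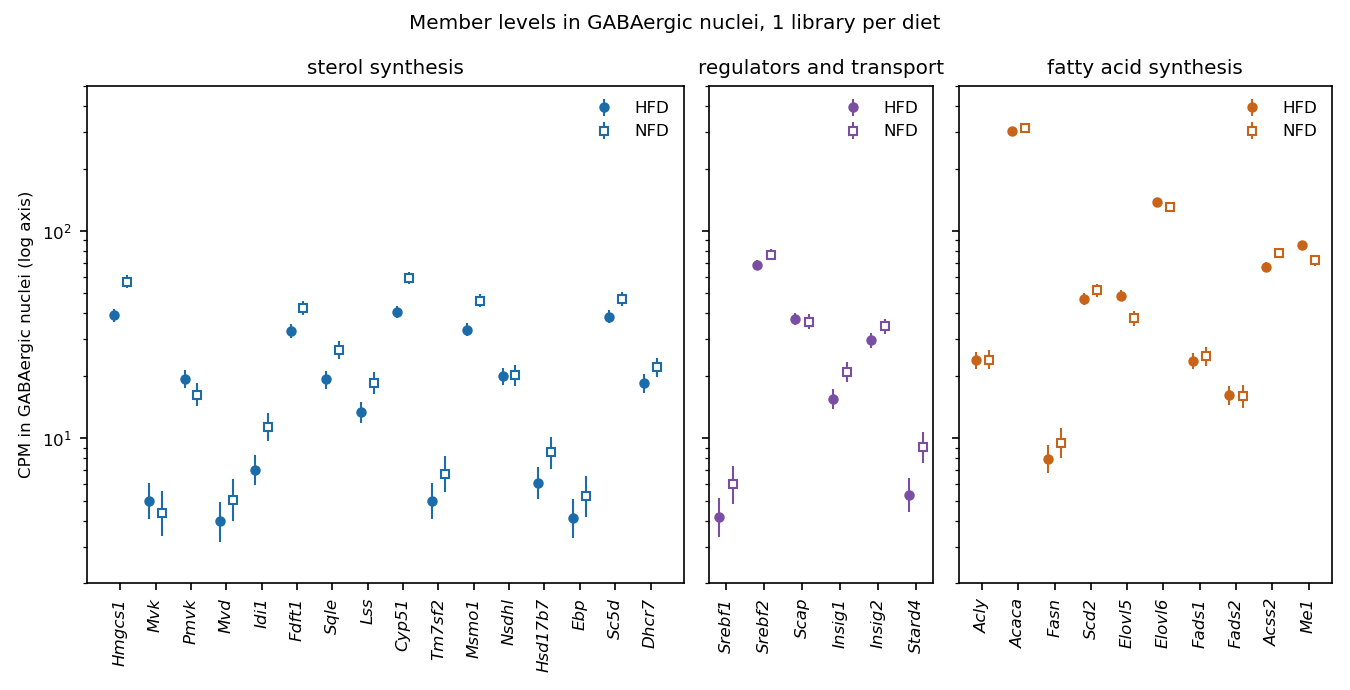
Level of each gene with at least 100 UMIs in GABAergic nuclei, in CPM on a log axis, with HFD as filled circles and NFD as open squares, and exact Poisson 95% intervals from counting. Most sterol genes sit lower in HFD nuclei, such as Idi1 at 7.03 against 11.4 CPM, while Elovl5 and Me1 among the fatty acid genes sit higher.

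The first enzymes of the path build mevalonate and isoprene units. Hmgcs1, which makes HMG-CoA, had 39.1 CPM in HFD and 57.0 CPM in NFD nuclei (log2 ratio -0.54, -0.68 to -0.40). Idi1, which interconverts the 2 isoprene units, had 7.03 CPM in HFD and 11.4 CPM in NFD nuclei (-0.70, -1.03 to -0.37), the lowest ratio of the sterol genes measured there. Between these steps lie the mevalonate kinases and the decarboxylase Mvd, whose ratios were positive or had wide intervals. Mvk had 4.996 and 4.38 CPM in HFD and NFD nuclei, and Pmvk had 19.3 and 16.2 CPM (0.25, 0.01 to 0.48), the only sterol gene whose interval lay above 0. Mvd had 3.98 CPM in HFD and 5.05 CPM in NFD nuclei (-0.35, -0.82 to 0.13). Fdps, the farnesyl diphosphate synthase, had 1 UMI in each library in these nuclei and 5 in all over all nuclei. Its annotated span overlaps Gm43738 and Gm22935 on the same strand, and no ratio could be had from so few UMIs.

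The squalene and lanosterol steps followed. Fdft1, the squalene synthase that commits farnesyl diphosphate to sterols, had 32.9 CPM in HFD and 42.6 CPM in NFD nuclei (-0.37, -0.53 to -0.21). Sqle, which oxidises squalene, had 19.2 CPM in HFD and 26.7 CPM in NFD nuclei (-0.47, -0.68 to -0.27). Lss, which closes the rings, had 13.3 and 18.5 CPM in HFD and NFD nuclei (-0.47, -0.72 to -0.22). All 3 were lower by more than their counting error.

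Of the 8 measured later enzymes that turn lanosterol into cholesterol, all had a ratio below 0, with Nsdhl at almost the same level in both diets. Cyp51, the lanosterol demethylase, had 40.8 CPM in HFD and 59.3 CPM in NFD nuclei (-0.54, -0.68 to -0.40). Msmo1, which oxidises the methyl groups of the sterol ring, had 33.4 CPM in HFD and 46.2 CPM in NFD nuclei (-0.47, -0.62 to -0.31). Nsdhl acts right after Msmo1 on the same groups and had 19.9 CPM in HFD and 20.1 CPM in NFD nuclei (-0.01, -0.23 to 0.21). Hsd17b7, the reductase that ends each round of demethylation, had 6.11 and 8.56 CPM in HFD and NFD nuclei (-0.49, -0.85 to -0.12). Tm7sf2, a sterol reductase, had 4.996 and 6.74 CPM (-0.43, -0.84 to -0.02), but it overlaps Vps51 on the same strand and is uncertain. The last enzymes differed less. Sc5d, a desaturase, had 38.6 CPM in HFD and 46.9 CPM in NFD nuclei (-0.28), and Dhcr7, the reductase that yields cholesterol, had 18.4 and 21.97 CPM (-0.26), both with intervals below 0. Ebp, the sterol isomerase, had 4.12 CPM in HFD and 5.26 CPM in NFD nuclei, with an interval that spanned 0. Of the sterol genes, Hmgcs1 (with Gm48342), Mvd (with Gm20388), Idi1 (with Gm48574), Fdft1 (with Ctsb), Lss (with 4930483K19Rik) and Cyp51 (with Akap9) overlap a gene on the opposite strand, whose reads may be told apart only where strand was used in counting.

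The regulators were also lower in HFD nuclei, unevenly. Of 6 measured, 5 had a ratio below 0 and 3 were at least 20% lower, at a median of -0.33, against 59.5% and 13.8% of all genes. Stard4, a cytosolic sterol carrier, had 5.34 CPM in HFD and 9.03 CPM in NFD nuclei (-0.76, -1.14 to -0.38). Insig1, the retention protein that is itself an SREBP target, had 15.4 CPM in HFD and 20.9 CPM in NFD nuclei (-0.44, -0.67 to -0.21), and its paralogue Insig2 had 29.7 and 34.6 CPM (-0.22, -0.39 to -0.05). Srebf1 had 4.17 CPM in HFD and 6.00 CPM in NFD nuclei (-0.52, -0.97 to -0.08), and Srebf2 had 68.7 and 76.9 CPM (-0.16, -0.28 to -0.05). Scap, the escort of both, had 37.6 and 36.5 CPM in HFD and NFD nuclei (0.04, -0.12 to 0.20), so the escort did not differ beyond counting error.

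The fatty acid genes split. Of the 10 measured, 6 had a ratio below 0, none was 20% lower and 1 was at least 25% higher (a log2 ratio of 0.32 or more), against 4.05% of all genes at least 25% higher. Their summed level was 763 CPM in HFD and 764 CPM in NFD nuclei, a log2 ratio of 0.00 (-0.04 to 0.03). The gene at least 25% higher was Elovl5, which lengthens polyunsaturated fatty acids, at 48.7 CPM in HFD and 38.0 CPM in NFD nuclei (0.36, 0.21 to 0.51). Me1, the malic enzyme that supplies NADPH, had 85.5 CPM in HFD and 72.2 CPM in NFD nuclei (0.24, 0.13 to 0.35). Acss2, which makes acetyl-CoA from acetate, lay on the other side, at 66.9 CPM in HFD and 78.2 CPM in NFD nuclei (-0.23, -0.34 to -0.11).
The enzymes of palmitate synthesis differed little. Acly, which makes acetyl-CoA from citrate, had 23.7 and 23.9 CPM in HFD and NFD nuclei. Acaca, the acetyl-CoA carboxylase, had 302 CPM in HFD and 315 CPM in NFD nuclei (-0.06, -0.12 to -0.01). Fasn, the fatty acid synthase, had 7.95 and 9.50 CPM (-0.26, -0.59 to 0.08), so its difference was within counting error. Among the enzymes that modify the chains, Elovl6 had 138 and 130 CPM, Fads1 23.6 and 24.9 CPM and Fads2 16.1 and 15.97 CPM in HFD and NFD nuclei, with intervals that spanned 0. Scd2, the main stearoyl-CoA desaturase of brain, had 47.1 CPM in HFD and 51.8 CPM in NFD nuclei (-0.14, -0.28 to -0.00). Scd1 (33 HFD and 37 NFD UMIs) and Acacb (44 HFD and 24 NFD UMIs) were under the minimum of 100.

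**Figure D2:**
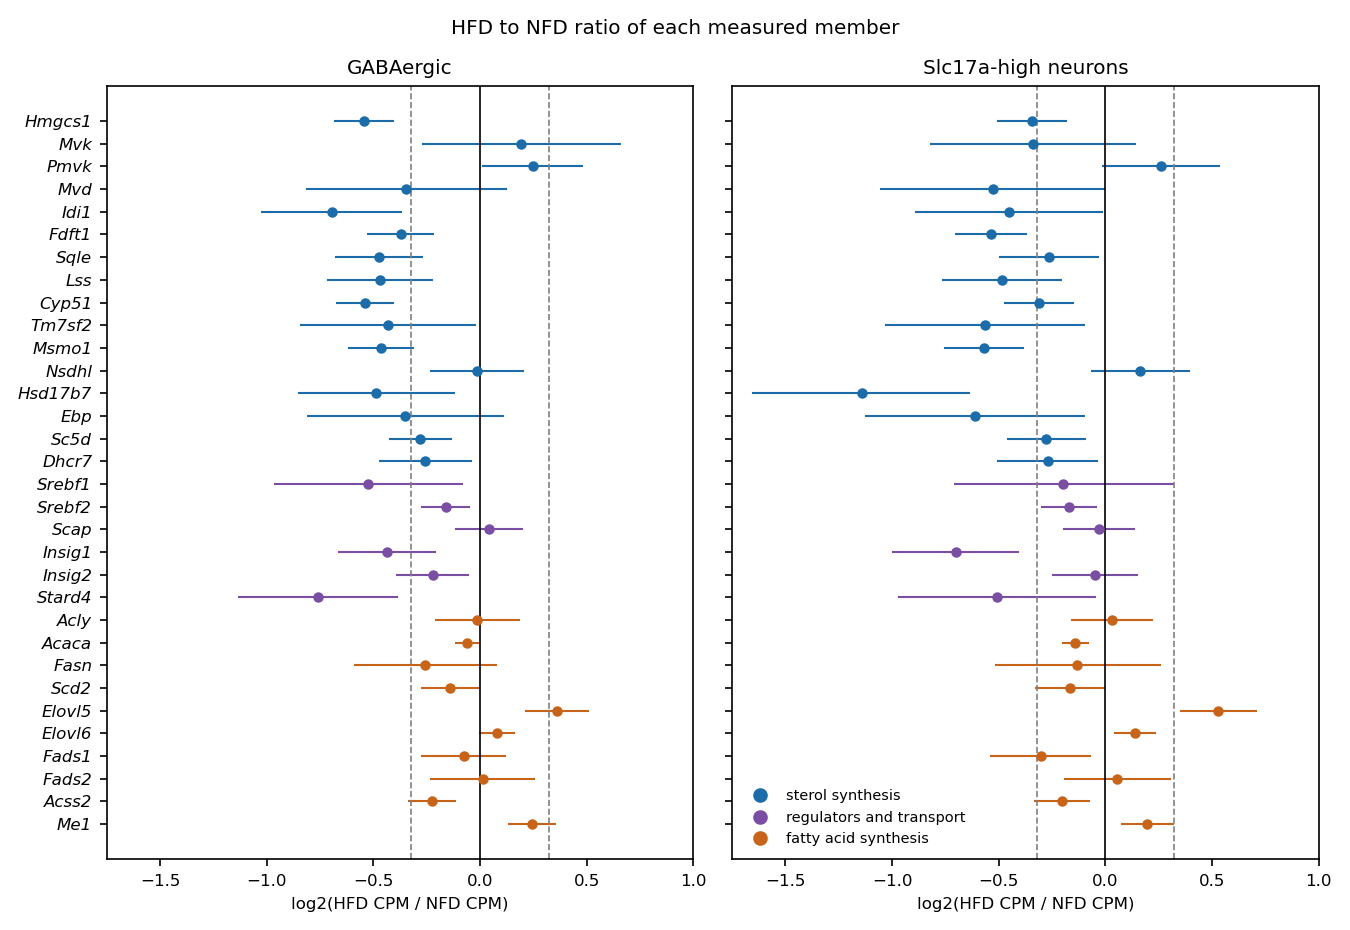
Log2 ratio of HFD CPM over NFD CPM for each gene with at least 100 UMIs, in GABAergic nuclei (left) and Slc17a-high neurons (right), with exact 95% counting intervals and dashed lines at -0.32 and 0.32. Sterol genes lie mostly left of 0 in both panels, at medians of -0.40 and -0.40, and fatty acid genes lie around 0.

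The summed sterol level was lower in the HFD library in every GABAergic cluster, cluster 4 with its glutamate transporter RNA included. Summed over the 17 genes, the log2 ratio was -0.32, -0.55, -0.39, -0.48 and -0.19 in clusters 2, 3, 4, 7 and 10, each with a counting interval below 0. The summed fatty acid ratio in the same clusters lay between -0.04 and 0.04, with intervals that included 0. By single genes, 7 of 10, 9 of 10, 9 of 10 and 7 of 8 measured sterol genes were lower in clusters 2, 3, 4 and 7. Of all genes there, 4889 of 8942, 4832 of 8689, 4336 of 8153 and 3244 of 6477 were lower. In cluster 10 the sterol genes split, with 3 lower and 3 higher, beside 3157 of all 6157 genes lower. Over all GABAergic nuclei of 4000 to 12000 UMIs, a window applied to both diets, the summed sterol ratio was -0.38 (-0.44 to -0.31). The share of nuclei with a UMI was compared at equal depth. Each nucleus was thinned to 2000 UMIs, which 2080 of 2087 HFD and 2317 of 2362 NFD nuclei reached. A UMI of Hmgcs1 was in 157 of 2080 HFD nuclei (7.55%, 6.45 to 8.77) and in 260 of 2317 NFD nuclei (11.2%, 9.96 to 12.6, Clopper-Pearson 95%). These genes were among the lowest by ratio. Of the 16 measured sterol genes, 14 had a lower share in HFD nuclei, but the intervals of the diets were apart for 3 of them, Hmgcs1, Cyp51 and Sqle, while Mvk and Pmvk had higher shares in HFD. Shares were not compared over all genes, so these counts have no background. For Cyp51 the shares were 7.93% of HFD nuclei (6.81 to 9.18) and 11.1% of NFD nuclei (9.84 to 12.4). At full depth, where HFD GABAergic nuclei had a median of 8704 UMIs and NFD nuclei 5440, the Hmgcs1 shares were 27.4% in HFD and 26.2% in NFD. No cell type here is known to lack these genes, so the share from free RNA could not be set apart. In oligodendrocyte precursors Hmgcs1 was found in 0 of 42 HFD and 0 of 39 NFD nuclei at 2000 UMIs (Clopper-Pearson limits of 8.41% and 9.03%), at median depths of 4240 and 2405 UMIs.

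Other measures of the libraries differed with diet too. In GABAergic nuclei the ratio varied with gene length: genes under 10 kb had a median of -0.16, with 27.6% at least 20% lower, and genes over 200 kb a median of 0.05, with 4.90%. The sterol genes are short, at a median annotated span of 16.1 kb against 59.4 kb for the fatty acid genes. Of genes of 10 to 20 kb, 7 sterol genes had a median of -0.47, 3 fatty acid genes -0.14 and all 2279 genes -0.10. Relative to genes of like span, 7 of 16 sterol genes were at least 20% lower. The share of all genes past that size was not computed on this scale, so the count has no background. Of 69 ribosomal protein genes, 57 had a ratio below 0, at a median of -0.27. Mitochondrial transcripts made up 0.393% of UMIs in HFD and 0.518% in NFD GABAergic nuclei, and Malat1 2.98% and 4.35%. The 6 granule neuron markers summed to 10.6 CPM in HFD and 3.71 CPM in NFD GABAergic nuclei, with 1 at 0 in each, and the 8 astrocyte markers to 41.96 and 46.6 CPM, with none at 0. The median sterol ratio stayed between -0.48 and -0.31 under 17 alternatives. They included ratios relative to genes of like span and totals without mitochondrial genes and Malat1. The part of each of these differences in the sterol result was not tested.

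**Figure D3:**
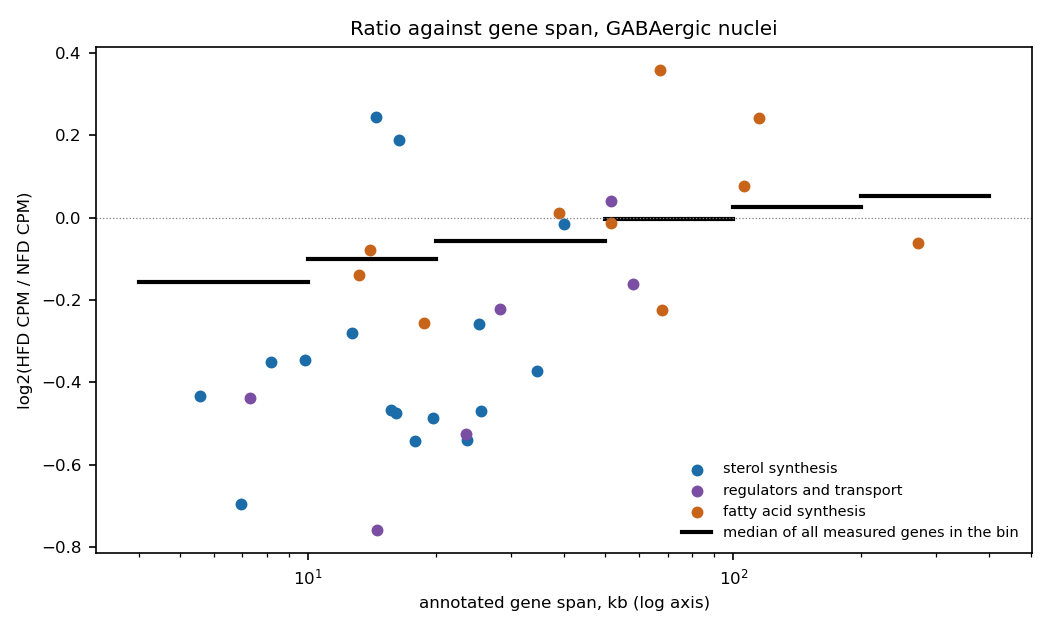
Log2 ratio of HFD CPM over NFD CPM in GABAergic nuclei against annotated gene span (kb, log axis), with a point per measured gene and a black line at the median of all measured genes in each span bin (the last bin, over 200 kb, is drawn to 400 kb and the first from 4 kb). The bin medians run between -0.16 and 0.05, and 13 of 16 sterol genes lie below the line of their bin.

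Related genes outside the 35 were called lower in GABAergic nuclei about as often as all genes. Of 41 genes of sterol export, turnover, other lipid synthesis and the SREBP machinery, 37 were measured, 24 had a ratio below 0, 6 were at least 20% lower and 1 at least 25% higher, at a median of -0.05, against 59.5% below 0, 13.8% at least 20% lower and 4.05% at least 25% higher of all genes. The higher one, Nfya, which encodes a subunit of NF-Y, was at 0.36 (-0.05 to 0.78). The 6 lower ones had intervals below 0. They were Acat2, the acetyl-CoA thiolase that feeds mevalonate synthesis (13.5 CPM in HFD and 18.5 CPM in NFD nuclei, -0.45), and Mbtps1, the Golgi protease that first cuts SREBP (35.2 and 47.2 CPM, -0.42). Npc2, which moves cholesterol out of lysosomes, had 9.60 and 12.8 CPM (-0.42), and Abcg1, a sterol exporter, had 21.8 and 27.5 CPM (-0.33). Gpam and Lpin1, enzymes of glycerolipid synthesis, were at -0.34 and -0.33. The median over all genes was also -0.05, and that of the sterol genes -0.40.

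The Slc17a-high neurons (1475 HFD and 1838 NFD nuclei) showed the same split between arms. Of 16 measured sterol genes, 14 were lower in HFD nuclei and 10 at least 20% lower, at a median of -0.40. Of all 12129 genes with 100 UMIs there, 59% were lower and 14.4% at least 20% lower. The summed level was 298 CPM in HFD and 376 CPM in NFD nuclei (-0.34, -0.40 to -0.28), and it was lower in each of the 4 clusters, at -0.36, -0.38, -0.45 and -0.17 in clusters 0, 6, 12 and 17. The sum in cluster 17 was only just below 0 by its interval (-0.32 to -0.007). There 4 of 5 measured sterol genes were lower, none with an interval below 0, beside 2721 of all 5025 genes lower. Hsd17b7 had the lowest ratio, at 3.40 CPM in HFD and 7.51 CPM in NFD nuclei (-1.14, -1.66 to -0.64), and Insig1 had 10.9 and 17.7 CPM (-0.70, -1.001 to -0.40). Msmo1, Tm7sf2, Ebp and Fdft1 lay between -0.61 and -0.54, all with intervals below 0. Of the 10 fatty acid genes, 5 were below 0 and 5 above, at a median of -0.05. Elovl5, named here after its values were seen, had 46.4 CPM in HFD and 32.2 CPM in NFD nuclei (0.53, 0.35 to 0.71). With 200 or more UMIs per gene, 10 sterol genes were measured and 4 were at least 20% lower. The share of all genes at that minimum was not computed.

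Cluster 1 was called mixed-transmitter because neither marker set was 2-fold the other, at 163 CPM of Slc32a1, Gad1 and Gad2 and 114.5 CPM of Slc17a transporters. As in the Slc17a-high neurons, only 1 Slc17a transporter was detected in at least 10% of its nuclei. The cluster (552 HFD and 1269 NFD nuclei) had 25 measured genes, at median depths of 10958.5 and 4435 UMIs. Of 11 sterol genes, 10 were lower in HFD nuclei and 3 at least 20% lower, at a median of -0.24, against 40.7% lower and 8.35% at least 20% lower of all 10211 genes. The summed sterol level was 269 CPM in HFD and 330 CPM in NFD nuclei (-0.30, -0.38 to -0.21). Beside it, astrocyte markers summed to 36.1 CPM in HFD and 66.1 CPM in NFD nuclei and mature oligodendrocyte markers to 38.5 and 60.97 CPM, with none at 0, and their part was not tested. Insig1 had 9.33 CPM in HFD and 15.997 CPM in NFD nuclei (-0.78, -1.22 to -0.34), and Sqle had 16.4 and 26.9 CPM (-0.71, -1.04 to -0.38). Insig1 was the only regulator that was lower. Of the 4 measured regulators, 3 were above 0, beside 6053 of all 10211 genes, at a median of 0.10. The regulators summed to 149.3 CPM in HFD and 149.1 CPM in NFD nuclei (0.00, -0.12 to 0.12). Hmgcs1 and Fdft1 were at -0.48 and -0.39. Elovl5 was again higher, at 38.8 CPM in HFD and 29.2 CPM in NFD nuclei (0.41, 0.15 to 0.66), and Acss2 lower, at 68.0 and 85.8 CPM (-0.34, -0.50 to -0.17).

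In serotonergic neurons most of the measured fatty acid genes were higher in the HFD library. The class was small (167 HFD and 264 NFD nuclei), and its markers summed to 4738 CPM in HFD and 3925 CPM in NFD nuclei. Of 9 measured fatty acid genes, 8 had a ratio above 0 and 4 were at least 25% higher, at a median of 0.30. Of all 6438 genes, 48.7% were above 0 and 10.6% at least 25% higher, at a median of -0.01. The summed fatty acid level was 1203 CPM in HFD and 1001 CPM in NFD nuclei (0.27, 0.19 to 0.34). Elovl5 had 70.7 CPM in HFD and 42.8 CPM in NFD nuclei (0.73, 0.37 to 1.10), and Elovl6, which lengthens palmitate, had 180 and 125 CPM (0.53, 0.32 to 0.75). The desaturases Fads1 and Fads2 were at 0.63 (0.06 to 1.23) and 0.58 (0.02 to 1.16). Acss2 was the exception, at 55.4 CPM in HFD and 76.6 CPM in NFD nuclei (-0.47, -0.79 to -0.15), but it turned to 0.045 after thinning each nucleus to 2000 UMIs.
The summed sterol level was also higher in these neurons, at 424 CPM in HFD and 376 CPM in NFD nuclei (0.17, 0.04 to 0.30), with 6 of 9 measured genes above 0 and Nsdhl at 30.4 and 17.4 CPM (0.80, 0.24 to 1.40). HFD serotonergic nuclei had a median of 16608 UMIs and NFD nuclei 5720. Among those of 4000 to 12000 UMIs the sterol ratio turned to -0.11 (-0.40 to 0.16), so its direction was not stable, while the fatty acid ratio was 0.33 (0.16 to 0.49). Dopaminergic neurons (126 HFD and 226 NFD nuclei) had 12 measured genes and a summed sterol ratio of -0.11 (-0.30 to 0.08), a difference not detectable at this depth. In them Cyp51 had 29.2 CPM in HFD and 46.0 CPM in NFD nuclei (-0.65, -1.25 to -0.07), and Elovl6 had 107 and 83.2 CPM (0.36, 0.00 to 0.72).

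**Figure D4:**
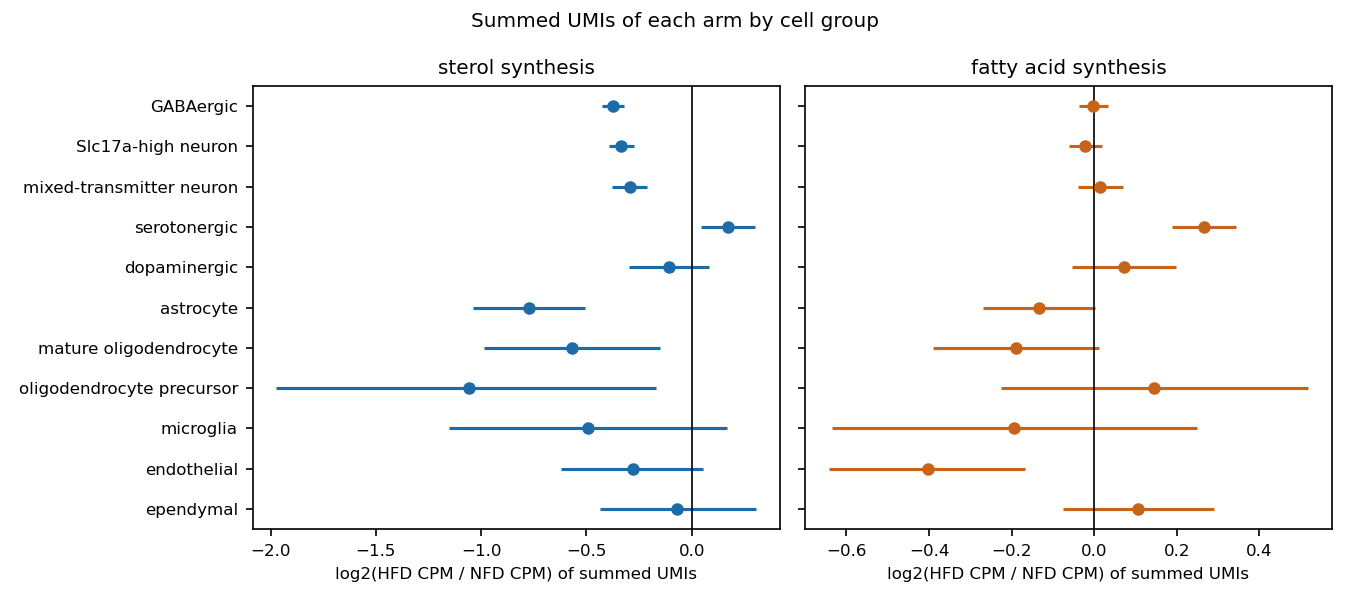
Log2 ratio of HFD CPM over NFD CPM of the summed UMIs of the sterol synthesis genes (left) and of the fatty acid synthesis genes (right) in 11 cell groups, with exact 95% counting intervals. The sterol sum lies below 0 beyond its interval in GABAergic, Slc17a-high and mixed-transmitter neurons, astrocytes and both oligodendrocyte groups, and above 0 in serotonergic neurons; pericytes or fibroblasts, with 10 sterol UMIs, are not drawn.

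Astrocytes (219 HFD and 346 NFD nuclei) had the lowest summed sterol ratio among groups with over 100 sterol UMIs in each library. The sum was 283 CPM (244 to 327) in HFD and 484 CPM (433 to 538) in NFD nuclei (-0.77, -1.04 to -0.51). Msmo1 was the only sterol gene with 100 UMIs there, at 55.4 CPM in HFD and 123 CPM in NFD nuclei (-1.16, -1.76 to -0.58). The regulators summed to 158 and 238 CPM in HFD and NFD nuclei (-0.59, -0.96 to -0.22), and the fatty acid genes to 1275 and 1399 CPM (-0.13, -0.27 to 0.00). Astrocyte markers were close between the diets, at 4806 CPM in HFD and 5004 CPM in NFD nuclei, and neuronal markers summed to 800 and 735 CPM, with none of the 4 at 0. Cluster 20 (78 HFD and 40 NFD nuclei), with astrocyte and neuronal markers, was left unnamed by a threshold set after the clusters were seen. With it the sterol ratio was -0.80. In astrocytes of 4000 to 12000 UMIs it was -1.55 (-2.21 to -0.88).
In mature oligodendrocytes (73 HFD and 124 NFD nuclei) the sterol genes summed to 234 CPM in HFD and 346 CPM in NFD nuclei (-0.57, -0.99 to -0.15), from 87 and 112 UMIs. Their neuronal markers were at 5089 CPM in HFD and 3513 CPM in NFD nuclei, and their granule neuron markers at 631 and 83.5 CPM. Their own markers were at 4944 and 7480 CPM, and the part of these differences in the ratio was not tested. Oligodendrocyte precursors had 19 sterol UMIs in HFD and 29 in NFD nuclei (-1.06, -1.97 to -0.17). In endothelial nuclei (96 HFD and 257 NFD) the fatty acid genes summed to 481 CPM in HFD and 636 CPM in NFD nuclei (-0.40, -0.64 to -0.17), and Acaca had 86.4 CPM in HFD and 181 CPM in NFD nuclei (-1.07, -1.62 to -0.54). Neuronal markers in these nuclei summed to 3183 CPM in HFD and 6687 CPM in NFD, with none of the 4 at 0, and blood markers to 182 and 847 CPM. Pericyte or fibroblast markers summed to 4158 CPM in HFD and 3270 CPM in NFD endothelial nuclei. In the pericyte or fibroblast group itself they summed to 3203 and 3573 CPM, so the endothelial group was not purely endothelial. Endothelial markers summed to 13241 and 10381 CPM in the endothelial group. The part of these in the fatty acid ratio was not tested. The median over all 2706 genes measured in endothelial nuclei was 0.14. In ependymal nuclei (173 HFD and 106 NFD) none of the 4 listed genes measured had an interval that left out 0. Oligodendrocyte precursors, microglia and pericytes or fibroblasts had no gene with 100 UMIs.

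Cell groups also differed in which paralogue they carried, a description for which each gene is compared only with itself, as the mean of the 2 libraries' CPM. Srebf1 was highest in ependymal nuclei at 121 CPM, 2.61-fold its level in astrocytes (46.2 CPM), and it had 5.08 CPM in GABAergic nuclei. Srebf2 varied less, with 89.5 CPM in ependymal, 78.1 in serotonergic and 72.8 in GABAergic nuclei, and its lowest level in microglia (25.1 CPM). Insig1 was highest in astrocytes (34.2 CPM) and Insig2 in endothelial nuclei (37.9 CPM), followed closely by microglia (34.2 CPM). Acaca was highest in serotonergic neurons (580 CPM) and lowest in ependymal nuclei (80.4 CPM). Acacb, the carboxylase linked to fatty acid oxidation, was highest in endothelial nuclei at 80.5 CPM, from 93 UMIs, and had 1.88 CPM in GABAergic nuclei. Stard4 was highest in endothelial nuclei too, at 44.4 CPM from 51 UMIs, and no other group passed 8.93 CPM. The endothelial group also carried pericyte or fibroblast markers (4158 CPM in HFD and 3270 CPM in NFD). Its Insig2, Acacb and Stard4 levels can therefore not be assigned to endothelial cells alone.
The desaturases and elongases divided likewise. Scd2 was highest in ependymal nuclei (489 CPM), then in mature oligodendrocytes (278 CPM) and astrocytes (192 CPM), against 49.4 CPM in GABAergic nuclei. Scd1 was also highest in ependymal nuclei, at 17.5 CPM from 18 UMIs. Fads2 was highest in astrocytes (214 CPM) and ependymal nuclei (177 CPM), and no other group passed 48.3 CPM. Fads1 was highest in the same groups, at 72.5 CPM in astrocytes and 70.4 CPM in ependymal nuclei. Elovl5 (79.1 CPM in mature oligodendrocytes) and Elovl6 (153 CPM in serotonergic neurons) had highest groups that differed between the libraries, and so did Scd1, Srebf2 and Insig2.

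**Figure D5:**
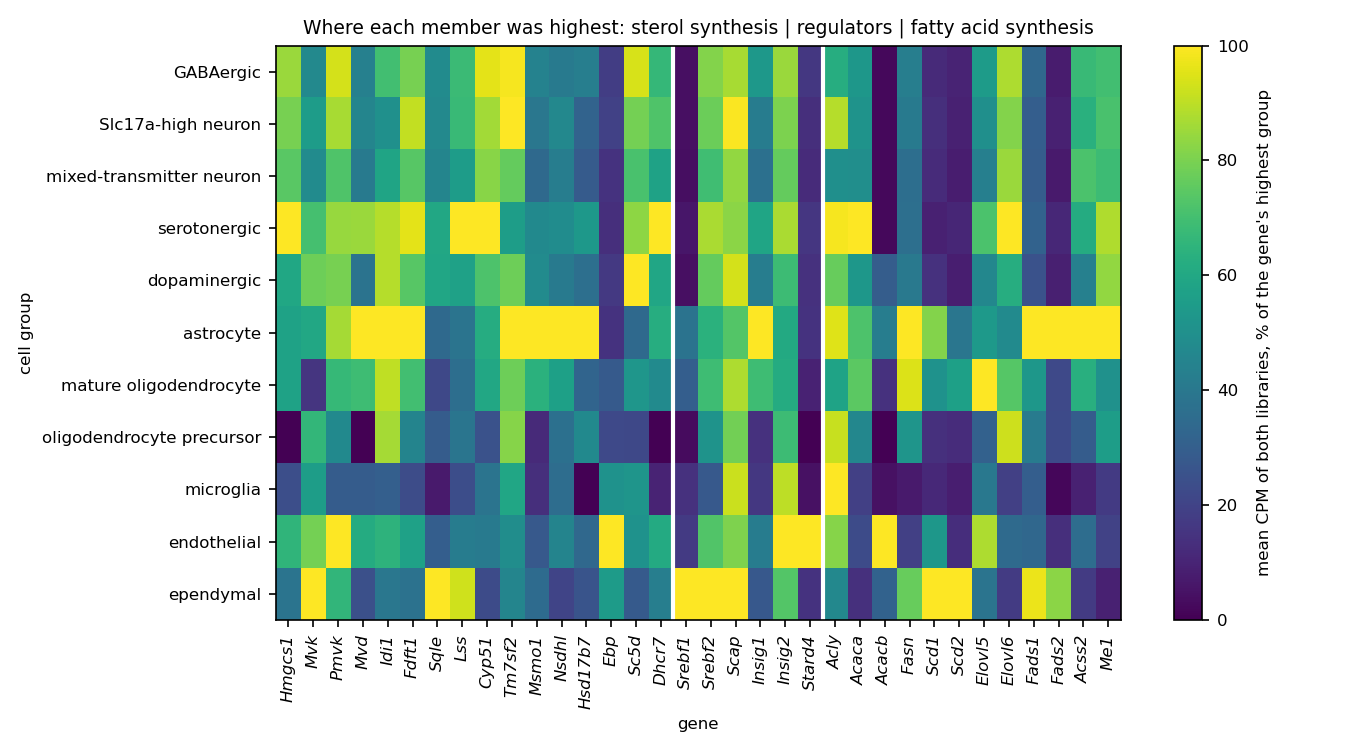
Level of 34 genes in 11 cell groups as a percentage of the gene's highest group (mean CPM of both libraries), with white lines between sterol synthesis, regulators and fatty acid synthesis. Srebf1, Scd1, Scd2 and Fads2 are bright in astrocytes or ependymal nuclei and dark in neurons, at 4.2% of the maximum for Srebf1 in GABAergic nuclei, while most sterol genes are present in every neuronal group; Fdps, with 5 UMIs, is left out, and precursors, microglia and endothelial nuclei rest on few UMIs.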

How the data were processed

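Nuclei of pooled vlPAG tissue were captured with the 3′ droplet kit in 1 library per diet. The values deposited are whole UMI counts, which the authors made with bcl2fastq 5.01 and Cell Ranger (4.0.0 in the matrix headers) on GRCm38 and analysed in Seurat 3.1.1. Whether intronic reads or the strand entered the counts was not given in the sources used here. An opposite-strand gene overlaps 14 of the 35 genes, and a same-strand gene 11. Those 11 are Fdps, Tm7sf2, Srebf1, Srebf2, Acly, Acaca, Scd2, Elovl6, Fads1, Acss2 and Me1, and their values are uncertain in that respect. The filter kept nuclei above 500 UMIs with less than 20% mitochondrial counts (54587419 HFD and 41042988 NFD UMIs).

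The genes and gene lists were chosen with earlier results of these data known. Nuclei were normalized and clustered in Seurat 5.3.0 (R 4.3.3) with 2000 variable genes less Abca1, Acly and Scd2 (1997 used), 20 principal components and a resolution of 0.5, both libraries together without integration. Clusters were named from fixed marker lists (mean log2 fold of at least 1 after adding 10 CPM, 2 for serotonergic and dopaminergic neurons, 3 markers in 10% of nuclei, and a marker of its own among the 10 leading genes). Neurons of no such class were called GABAergic where the GABAergic markers were at least 2-fold the Slc17a ones, with 3 markers detected. A glial class also needed a mean neuronal log2 fold under -0.5. The scoring rules were set after the clusters were seen. Scrublet (scanpy 1.11.5) marked 0 HFD nuclei and 1 NFD nucleus and was not usable, so doublets were kept, and the highest 6% of scores were removed in an alternative.

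For each library and cell group, UMIs were added up and divided by the group's total (CPM). CPM has exact Poisson intervals, ratios of CPM exact conditional binomial intervals and shares Clopper-Pearson intervals, all at 95% and for counting error only (Python 3.11.15, numpy 2.4.6, scipy 1.17.1, pandas 2.3.3). No p-value was computed. A ratio was used with at least 100 UMIs over both libraries and called at 20% lower or 25% higher in HFD. In GABAergic nuclei all measured genes are named. In other groups up to 6 are named, those with the largest ratios whose interval leaves out 0. Paralogue pairs and genes at least 2-fold higher in a group than in the next are named by level, and related genes past these sizes with an interval that leaves out 0. Nfya, whose interval included 0, was named outside this rule as the only related gene at least 25% higher. The ratio step was run on simulated GABAergic counts drawn with counting error only, which is the error its intervals assume. In them 1.95% of unchanged genes came out at least 20% lower, beside 13.8% of all genes in the data. The simulation held no shift between the libraries over all genes, so it cannot show the size of such a shift. Alternatives varied scaling, thinning, depth, filters, clustering and the UMI minimum. The transmitter threshold of 3-fold, the span, the depth window and the extra astrocyte cluster were added after the data were seen. The summed level of the GABAergic markers is not reported here.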

Additional observations from a re-analysis of the deposited data

Results flagged for a closer look

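The HFD to NFD ratio pointed in opposite directions in different cell groups for the results below, each with a counting interval that left out 0. The differences between groups were not tested, since each group has 1 library per diet. The summed sterol UMIs had a log2 ratio of 0.17 in serotonergic neurons, against -0.37 in GABAergic, -0.34 in Slc17a-high and -0.30 in mixed-transmitter neurons, -0.77 in astrocytes, -0.57 in mature oligodendrocytes and -1.06 in oligodendrocyte precursors. The serotonergic value was -0.11 in nuclei of 4000 to 12000 UMIs. The summed fatty acid UMIs were at 0.27 in serotonergic neurons and -0.40 in endothelial nuclei, where neuronal markers summed to 3183 CPM in HFD and 6687 CPM in NFD nuclei; their part was not tested. Acaca was at 0.24 in serotonergic neurons, against -0.06 in GABAergic, -0.14 in Slc17a-high and -0.09 in mixed-transmitter neurons and -1.07 in endothelial nuclei. Its GABAergic value was close to the median of all genes there (-0.05) and turned positive with median-of-ratios scaling. Fads1 was at 0.63 in serotonergic and -0.30 in Slc17a-high neurons.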

How the results depend on the processing

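No paired analysis was possible because each diet has 1 library. The median sterol ratio stayed between -0.48 and -0.31 in GABAergic nuclei under 17 alternatives and between -0.46 and -0.29 in Slc17a-high neurons under 16. The count of sterol genes at least 20% lower moved more. In GABAergic nuclei it was 6 of 10 measured after thinning to 2000 UMIs and 7 of 16 relative to genes of like span. In Slc17a-high neurons it was 5 of 9 after thinning, 5 of 10 in nuclei of 4000 to 12000 UMIs, 5 of 10 at a resolution of 0.3 and 4 of 10 with at least 200 UMIs. The cause was not tested, except that fewer genes were measured in the last 4 of these and in the thinned GABAergic nuclei. The share of all genes at least 20% lower was not computed under these alternatives, so the counts have no background. The summed sterol ratio in GABAergic nuclei was -0.32 after thinning and -0.31 with 30 principal components, where the fatty acid ratio was 0.036. In serotonergic neurons thinning gave 0.33 for sterol and 0.46 for fatty acid genes, and nuclei of 4000 to 12000 UMIs turned the sterol ratio to -0.11. In astrocytes of that depth the ratios were -1.55 for sterol and 0.19 for fatty acid genes, and with the cluster that also carried neuronal markers the fatty acid ratio was -0.32. Of single genes, Acaca in GABAergic nuclei turned to 0.012 with median-of-ratios scaling, Mvd and Sqle in Slc17a-high neurons to 0.49 after thinning and 0.12 at a resolution of 0.3, and Acss2 in serotonergic neurons to 0.045 after thinning; of the other single-gene values 1090 stayed within the counting interval or spread and 34 moved beyond it without reversing. Thinned to 1000 UMIs, the GABAergic shares were 3.64% of HFD and 5.60% of NFD nuclei for Hmgcs1 and 3.79% and 5.64% for Cyp51, and at full depth 27.4% and 26.2% for Hmgcs1 and 30.7% and 29.4% for Cyp51. Glia, with medians of 922 to 4240 UMIs, limit most genes to sums over an arm.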

Other observations

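The granule-like cluster, with 762 HFD and 10 NFD nuclei, allowed no comparison. In its HFD nuclei the fatty acid genes summed to 460 CPM and the sterol genes to 138 CPM, with Acaca at 140 CPM, Elovl6 at 108 CPM and Acss2 at 100.3 CPM. Over all nuclei the summed sterol level was 295 CPM in HFD and 372 CPM in NFD (log2 ratio -0.33), and without the granule-like nuclei 299.7 and 372 CPM (-0.31). Both sums include the unnamed clusters, and cell groups were not set to equal shares.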
